A study of Mus musculus with 10 samples.

Results

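The genes described here encode the subunits of the mitochondrial respiratory chain and ATP synthase. They were taken by symbol from the deposited count table. The symbols start with Ndufa, Ndufb, Ndufc, Ndufs, Ndufv, Uqcr, Cox4i, Cox5, Cox6, Cox7, Cox8, Atp5, mt-Nd, mt-Co, mt-Atp or mt-Cytb, or are Sdha, Sdhb, Sdhc, Sdhd or Cyc1. Of 93 matching rows, 7 assembly factors (Ndufaf) were dropped and 0 were pseudogenes. This left 86 members of 13932 listed genes, 79 encoded in the nucleus and 7 in the mitochondrial genome. The mitochondrial members are mt-Nd1, mt-Nd2, mt-Nd4, mt-Nd5, mt-Nd6, mt-Co1 and mt-Cytb. The other mitochondrially encoded subunits were not analysed here, nor were Cox4i2, Cox6a2, Cox8b, Ndufa4l2 and Atp5g2. By symbol, complex I had 36 nuclear and 5 mitochondrial members, complex II 4 nuclear ones, complex III 9 and 1, complex IV 14 and 1 with Ndufa4 placed there, and complex V 14 nuclear ones. Atp5s and Atp5sl match by name and were placed in none of the 5 complexes.

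The respiratory chain passes electrons from nutrients to oxygen and pumps protons across the inner mitochondrial membrane. Complexes I and II take electrons from NADH and succinate, complex III hands them to cytochrome c, complex IV gives them to oxygen, and ATP synthase (complex V) uses the proton gradient to make ATP. Most subunits are made from nuclear genes and imported, while core subunits of every complex but complex II are made inside the mitochondrion from its own genome. In the intestinal epithelium this supply of ATP serves both nutrient transport in enterocytes and the renewal of the crypt.

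RNA came from epithelial cells of the mouse ileum, sorted as live, CD45- and EpCAM+ (400000 cells per mouse), from 10 mice with 1 library each. All 10 carried a floxed H2-Ab1 gene (H2-Ab1 fl/fl), which encodes an MHC class II beta chain. In 5 mice, called dIEC, the labels add Villin:Cre+, that is Cre recombinase driven by the promoter of villin, a gene of the gut epithelium. The other 5, called WT, were Villin:Cre-. The series text gives Cre- for both genotypes. Males were WT 2, 4 and 6 and dIEC 1, 3 and 5, and females WT 8 and 10 and dIEC 7 and 9. Ages and further treatments were not given in the labels. Deletion and Cre came together, so their effects cannot be told apart.

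H2-Ab1 was at 368, 246, 235, 62.9 and 130 CPM (counts scaled to a common library total after TMM normalization) in WT 2, 4, 6, 8 and 10. It was at 1.99, 3.11, 0.767, 1.84 and 3.01 CPM in dIEC 1, 3, 5, 7 and 9. The groups did not overlap (log2 fold change -6.39, SE 0.51, edgeR adjusted p = 0.000904; exact two-sided permutation p = 0.00794 over 252 assignments, the smallest it can give). Library totals ran from 9174101 to 13484363 counts. All 22 mature enterocyte markers had counts in every library. Of 15 leukocyte markers 4 were listed, at 12.4 to 21.0 summed CPM in WT and 14.1 to 21.6 in dIEC. Of 16 markers of muscle, stroma and endothelium 4 were listed, at 4.25 to 8.39 and 5.29 to 9.10 summed CPM. The mean log2 CPM of 26 proliferation genes ran from 2.97 in dIEC 7 to 5.59 in dIEC 9. In bulk RNA, fewer cells of a type and less RNA per cell cannot be told apart.

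No respiratory chain gene passed the threshold between dIEC and WT, and nearly every nuclear one had a fold change below 0. Of 85 members with enough counts to be tested, 0 passed an adjusted p of 0.05 in edgeR's quasi-likelihood test, where 0.016% of 12477 genes passed. At an unadjusted p under 0.05 there were 33 members, each lower in dIEC and each nuclear, against 1.64% of genes lower at that level. DESeq2 called 1 member, Cox6a1, where it called 0.0321% of genes, and limma voom called 0, where it called 0.016%. The 1 untested member, Atp5l, had between 0 and 10 counts per library. Of its 50-base stretches, 84.8% also occur in transcripts of 14 other genes.

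The nuclear members had log2 fold changes below 0 for 77 of 78 genes, with a median of -0.38 and a range from -0.61 (Ndufb10) to 0.23 (Cox6b2). Over all genes tested, 47.4% were below 0 and the median was 0.013. The complexes had similar medians. Medians were -0.38 for complex I (36 of 36 lower), -0.34 for complex II (4 of 4), -0.40 for complex III (9 of 9), -0.39 for complex IV (13 of 14) and -0.36 for complex V (13 of 13). The 7 mitochondrially encoded members had a median of 0.021, with 3 below 0, and this median was at or below 0 whenever any 1 library was left out (-0.11 without WT 8).

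The values per library show where the nuclear difference lay. The mean log2 CPM of the 78 nuclear members was 6.46, 6.12, 6.34, 7.05 and 6.66 in WT 2, 4, 6, 8 and 10, and 5.92, 6.18, 6.21, 5.99 and 6.49 in dIEC 1, 3, 5, 7 and 9. The WT females 8 and 10 were the highest of the 10 libraries, dIEC 1 and dIEC 7 the lowest, and the other 6 libraries of both genotypes overlapped. WT 8 held the highest value of 75 of the 85 members, and dIEC 1 and dIEC 7 the lowest value of 50 and 30. Both WT females stood above the other 8 libraries for 53 of 85 members (50 nuclear, 3 mitochondrial), against 6.33% of genes. All dIEC libraries lay below all WT libraries for 0 members, against 0.136% of genes.

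**Figure D1:**
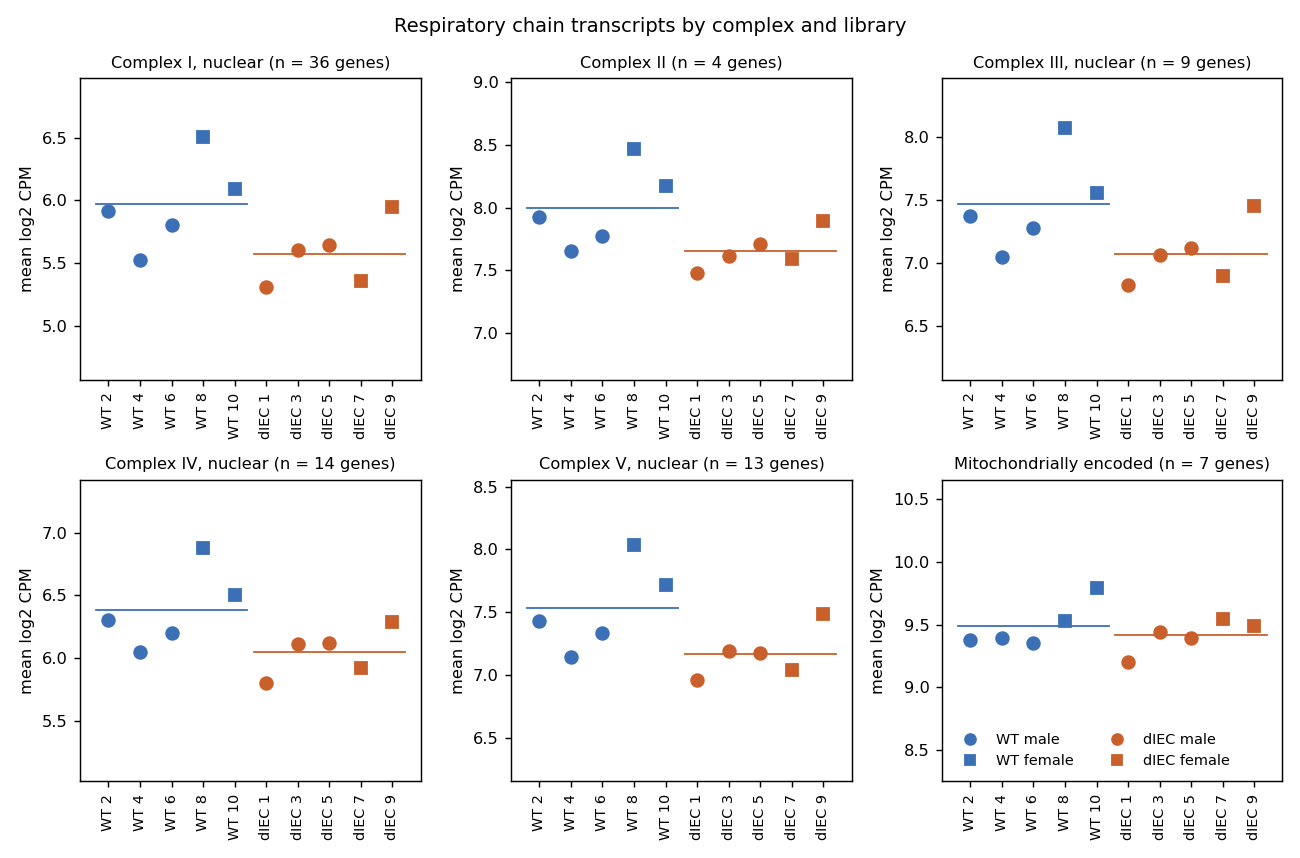
Mean log2 CPM (vertical axis) of the tested members of each complex in each library (circles males, squares females, blue WT, orange dIEC, lines group means). WT 8 is highest in each nuclear panel and dIEC 1 lowest, while the mitochondrially encoded panel runs from 9.20 in dIEC 1 to 9.79 in WT 10.

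These libraries differed in other cell markers too. The 5 erythroid markers summed to 0 CPM in WT 8 and 0.179 CPM in WT 10, with 5 and 4 of them at 0 counts, and to between 13.2 and 28.4 CPM in the other 8 libraries with none at 0. Goblet markers summed to 5793 and 5005 CPM in WT 8 and 10 and to between 7268 and 48032 CPM elsewhere. Enteroendocrine markers summed to 170 and 220 CPM in WT 8 and 10 and to between 245 and 422 CPM elsewhere. Mature enterocyte markers were highest in dIEC 7 and WT 10 (90681 and 76523 CPM), and Paneth markers lowest in WT 10 and dIEC 7 (229 and 255 CPM). Proliferation genes had mean log2 CPM of 4.54 and 3.30 in WT 8 and 10, within the range of the other libraries, and the low libraries dIEC 1 and 7 were at 4.66 and 2.97. The part of these markers in the respiratory chain values was not tested. With WT 8 and 10 left out, a choice made after seeing the data, the nuclear median was -0.23 with 77 of 78 members lower, 1 of 85 members at an unadjusted p under 0.05 and 0 called. With dIEC 1 and 7 left out, likewise chosen, it was -0.23, with 77 lower, 2 at an unadjusted p under 0.05 and 0 called. The number of members at an unadjusted p under 0.05 was 33 with every library. It was 6 without WT 8, 6 without dIEC 1, 9 without dIEC 7, 11 without WT 2 and 19 without WT 6. It was 29 without WT 10, 30 without dIEC 3, 36 without dIEC 9, 38 without dIEC 5 and 47 without WT 4. Scaling by library size only gave 5 members. The number was 21 with no sex term, 54 in limma voom and 70 with a proliferation score in the model. Over all 12477 genes that number was 355 in the edgeR model of sex and genotype, 2379 in limma voom and 1994 with the proliferation score. It was 175 to 301 without WT 2, WT 6, WT 8, dIEC 1 or dIEC 7. Without WT 4, WT 10, dIEC 3, dIEC 5 or dIEC 9 it was 321 to 663. Scaling by library size only gave 312 genes, and no sex term 343. With WT 8 and 10 left out it was 103, and with dIEC 1 and 7 left out 112.

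Promoter sequences were read for the members the tests ranked first by genotype and for the Cox7a isoform pair of complex IV. Nuclear respiratory factor 1 (NRF1), ETS factors such as GABP, and YY1 are known regulators of many of these genes. Of 79 nuclear members, 67 matched a RefSeq promoter on GRCm38.p6, from 250 bases before to 50 after the start. On either strand, the NRF1 letters GCGCANGCG occurred in 19 members (28.4%, against 7.03% of 27025 genes and 6.25% of their 32851 promoters), the ETS letters CCGGAAG in 16 (23.9%, against 9.93% and 8.86%) and the YY1 letters AAGATGGCG in 8 (11.9%, against 1.64% and 1.40%). Capitals below mark NRF1 and ETS matches, which do not overlap each other here, though 2 overlapping NRF1 matches on opposite strands can form 1 longer run. Cox6a1 lies at chr5:115348909-115349208 (minus strand), Ndufb10 at chr17:24724374-24724673 (minus), Cox7a1 at chr7:30183921-30184220 (plus) and Cox7a2 at chr9:79759804-79760103 (minus).
Cox6a1: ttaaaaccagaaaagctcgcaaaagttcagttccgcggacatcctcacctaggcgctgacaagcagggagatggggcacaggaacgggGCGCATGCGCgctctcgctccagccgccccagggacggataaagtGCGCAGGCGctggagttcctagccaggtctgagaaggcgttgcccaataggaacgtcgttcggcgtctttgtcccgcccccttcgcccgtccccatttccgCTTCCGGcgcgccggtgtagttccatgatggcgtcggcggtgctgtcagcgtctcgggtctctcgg
Ndufb10: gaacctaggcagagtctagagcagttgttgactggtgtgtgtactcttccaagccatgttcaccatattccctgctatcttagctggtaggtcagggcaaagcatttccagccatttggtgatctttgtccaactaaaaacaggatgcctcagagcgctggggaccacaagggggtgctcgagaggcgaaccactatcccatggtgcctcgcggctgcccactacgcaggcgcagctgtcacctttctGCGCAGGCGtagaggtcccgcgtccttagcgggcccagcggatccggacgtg
Cox7a1: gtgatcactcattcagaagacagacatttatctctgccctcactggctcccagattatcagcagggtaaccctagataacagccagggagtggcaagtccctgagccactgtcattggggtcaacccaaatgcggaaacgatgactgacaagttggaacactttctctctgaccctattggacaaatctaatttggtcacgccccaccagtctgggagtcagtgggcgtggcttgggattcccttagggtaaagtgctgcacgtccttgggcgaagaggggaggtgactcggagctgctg
Cox7a2: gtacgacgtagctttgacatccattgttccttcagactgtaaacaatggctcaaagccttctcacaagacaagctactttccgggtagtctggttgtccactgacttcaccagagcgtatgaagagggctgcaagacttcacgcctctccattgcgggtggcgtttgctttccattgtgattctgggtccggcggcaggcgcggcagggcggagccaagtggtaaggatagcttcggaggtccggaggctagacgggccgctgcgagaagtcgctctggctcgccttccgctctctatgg
Cox6a1 carries both motifs and Ndufb10 the NRF1 letters, while neither Cox7a isoform holds any of the searched letters in this window. These matches describe the sequence and not binding.

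Complex I, the NADH dehydrogenase, had its smallest p for Ndufb10 and Ndufb9, both accessory subunits. Ndufb10 was at 87.4, 52.7, 73.3, 118 and 102 CPM in WT 2, 4, 6, 8 and 10, and at 47.4, 57.2, 53.8, 51.4 and 69.1 CPM in dIEC 1, 3, 5, 7 and 9. The dIEC libraries sat below WT except that WT 4 lay among them (log2 fold change -0.61, SE 0.17, unadjusted p = 0.00457, edgeR adjusted p = 0.9999). Ndufb9 averaged 165 ± 52.2 CPM over the WT libraries and 115 ± 20.3 over the dIEC ones (SD, n = 5 each; log2 fold change -0.48, SE 0.17). Ndufa6, which with Ndufb9 had the highest level per kilobase of exon among nuclear complex I members (187 and 199 CPM per kb), was at 140 ± 34.2 and 114 ± 10.01 CPM. Ndufa13, also a regulator of cell death, was at 124 ± 27.8 and 101 ± 14.1 CPM. The groups overlapped for each of these.

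Complex II, succinate dehydrogenase, belongs to both the chain and the citric acid cycle. Sdhd, a membrane anchor, was at 236, 177, 204, 383 and 271 CPM in WT 2, 4, 6, 8 and 10 and at 158, 170, 196, 147 and 227 CPM in dIEC 1, 3, 5, 7 and 9. WT 8 stood highest and the ranges overlapped (log2 fold change -0.46, SE 0.19). Sdhb, the iron-sulfur subunit, was at 261 ± 67.9 and 198 ± 24.2 CPM. The anchor Sdhc was at 152 ± 40.6 and 122 ± 15.1 CPM, and the flavoprotein Sdha at 467 ± 69.8 and 394 ± 31.6 CPM (SD, n = 5 each). Both WT females stood above the other 8 libraries for each of the 4 genes.

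Complex III, which passes electrons from ubiquinol to cytochrome c, had small differences of the same sign. Cyc1, the cytochrome c1 subunit, was at 245, 196, 222, 366 and 306 CPM in the WT libraries in the order above and at 163, 205, 195, 196 and 235 CPM in dIEC. WT 2, 8 and 10 lay above every dIEC library, while WT 4 and 6 lay within the dIEC range (log2 fold change -0.40, SE 0.15). The core subunit Uqcrc1 was at 527 ± 109 and 396 ± 54.0 CPM. The hinge protein Uqcrh, the highest per kilobase (317 CPM per kb), was at 203 ± 67.8 and 145 ± 37.0 CPM, and the Rieske iron-sulfur protein Uqcrfs1 at 237 ± 66.5 and 188 ± 16.3 CPM.

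Complex IV, cytochrome c oxidase, held the member with the smallest p. Cox6a1, the broadly expressed isoform of subunit 6a, was at 272, 243, 260, 366 and 339 CPM in WT 2, 4, 6, 8 and 10, and at 174, 202, 222, 250 and 234 CPM in dIEC 1, 3, 5, 7 and 9. Only dIEC 7 lay above the lowest WT library, WT 4. The log2 fold change was -0.44 (SE 0.12, unadjusted p = 0.00446, edgeR adjusted p = 0.9999). DESeq2 called it (log2 fold change -0.45, adjusted p = 0.0366) and limma voom did not (-0.40, adjusted p = 0.188). In other genes 12.3% of its 50-base stretches recur, so its count is less certain. Over 20% recur for 18 members, among them Atp5h (47.9%), Ndufa13 (28.5%), Cox5b (25.9%) and Ndufb9 (23.4%), whose counts are uncertain likewise. Cox4i1, the most abundant nuclear complex IV transcript (549 CPM per kb), was at 481 ± 154 and 359 ± 55.5 CPM. Cox5b was at 88.4 ± 24.2 and 65.8 ± 8.82 CPM, Cox6b1 at 294 ± 90.1 and 215 ± 39.9, Cox8a at 124 ± 29.4 and 93.1 ± 18.4, and Ndufa4 at 141 ± 53.3 and 107 ± 42.1.

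Complex V, the ATP synthase, includes the most abundant nuclear transcripts. Atp5b, the catalytic beta subunit, was at 2166, 1793, 1984, 2951 and 2542 CPM in WT and at 1535, 1797, 1829, 1800 and 2032 CPM in dIEC, with WT 4 and 6 inside the dIEC range. Its partner Atp5a1 was at 1828 ± 493 and 1402 ± 167 CPM. Per kilobase, Atp5b had 1066 CPM, Atp5a1 556 and, on the mitochondrial side, mt-Co1 7406, mt-Nd1 1817 and mt-Cytb 1631. Atp5j2, a membrane-sector subunit, showed -0.50 on the log2 scale (SE 0.16, 79.5 ± 20.7 and 55.2 ± 9.97 CPM) and Atp5h, a stalk subunit, -0.39 (SE 0.14, 69.8 ± 14.5 and 53.1 ± 8.83 CPM).

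**Figure D2:**
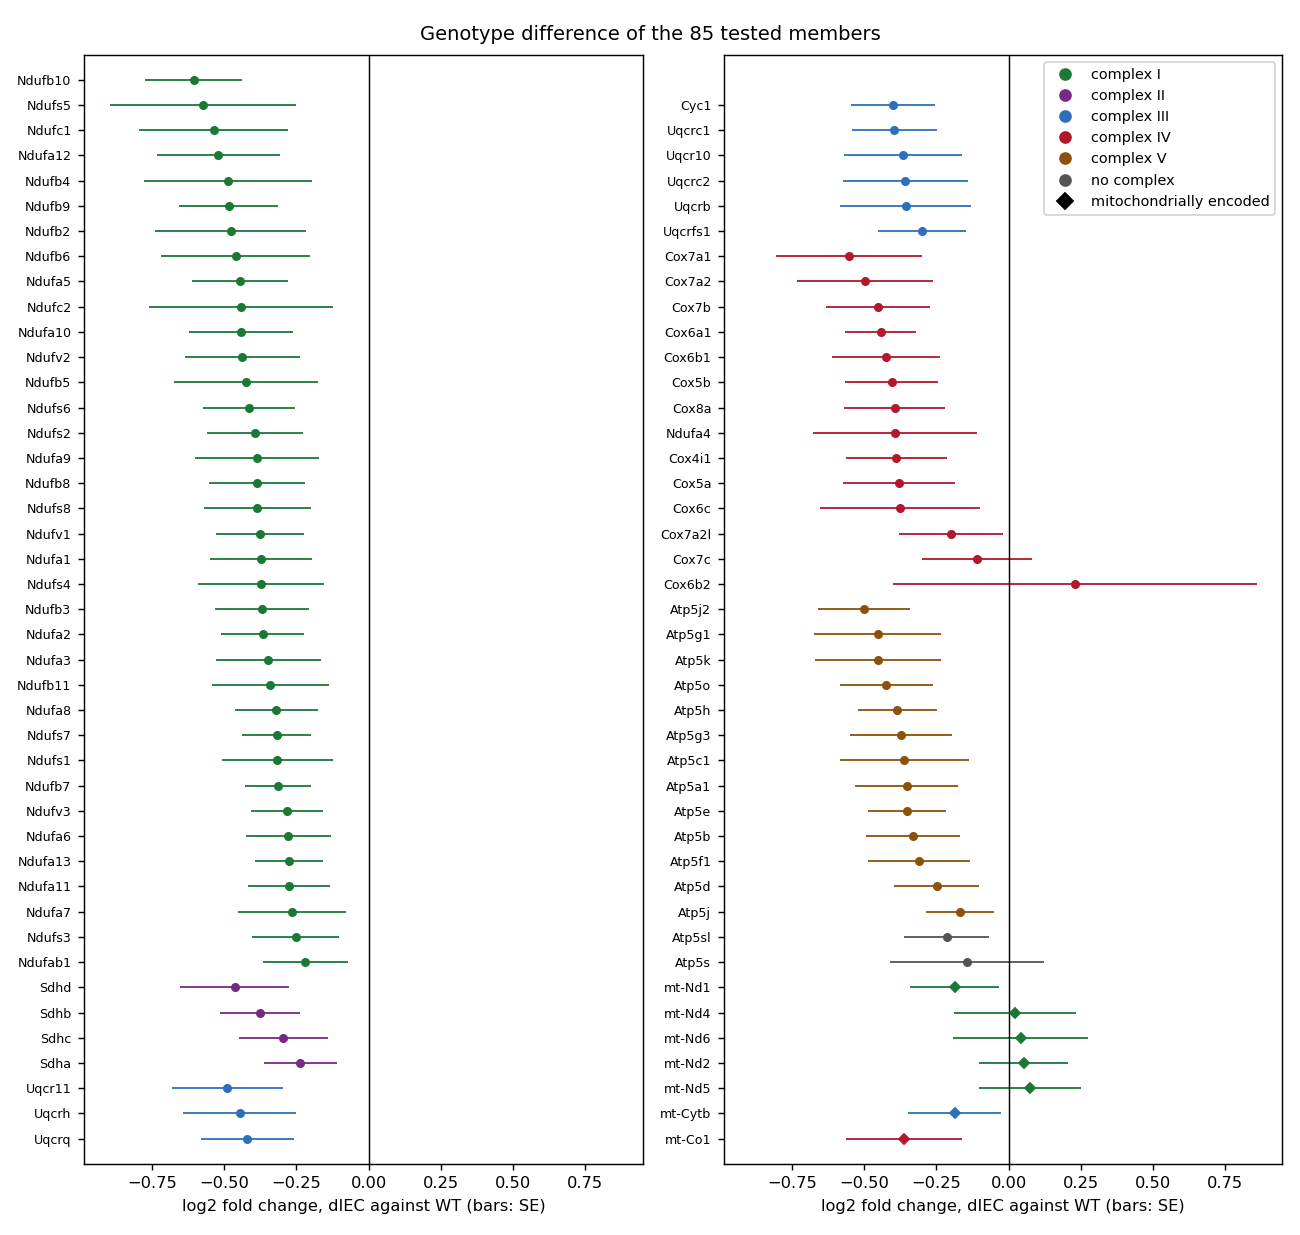
Log2 fold change of dIEC against WT (horizontal axis, with bars for 1 standard error) for each of the 85 tested members, coloured by complex, with diamonds for mitochondrially encoded genes. Nuclear members other than Cox6b2 lie left of 0, and 4 mitochondrially encoded members lie right of it.

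The mitochondrial transcripts had no common direction between genotypes. mt-Co1, the catalytic core of complex IV, was at 10640, 11700, 11180, 14390 and 16850 CPM in WT 2, 4, 6, 8 and 10 and at 8294, 9353, 11550, 10580 and 9887 CPM in dIEC 1, 3, 5, 7 and 9. The WT females were highest and dIEC 5 lay among the WT males (log2 fold change -0.36, SE 0.20). For mt-Nd1 and mt-Cytb the log2 fold changes were -0.19 (SE 0.16) and -0.19 (SE 0.16). Values were 0.052 (SE 0.15) for mt-Nd2, 0.021 (SE 0.21) for mt-Nd4, 0.073 (SE 0.18) for mt-Nd5 and 0.042 (SE 0.23) for mt-Nd6, the directions of which turned in some settings. The difference between mitochondrial and nuclear mean log2 CPM was 2.96 ± 0.30 in WT and 3.26 ± 0.20 in dIEC (SD, n = 5 each), lowest in WT 8 (2.48) and highest in dIEC 7 (3.56). Mitochondrial members took 1.29% to 2.15% of counts and nuclear ones 0.837% to 2.09%, over all libraries.

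The mitochondrial genes also differed from each other within WT 8. Relative to each gene's mean over the 10 libraries, mt-Nd1, mt-Co1 and mt-Cytb were at 0.44, 0.36 and 0.24 log2 units in WT 8, while mt-Nd2, mt-Nd4 and mt-Nd5 were at -0.20, -0.43 and -0.37. In WT 10 the same 6 genes were at 0.46, 0.59, 0.48, 0.43, 0.52 and 0.33. mt-Nd6, on the other strand and at 12.6 to 25.3 CPM, was at 0.51 in WT 8 and -0.45 in WT 10. These genes lie on GRCm38 chromosome M, among them mt-Nd5 at 11742 to 13565 (plus) and mt-Nd6 at 13552 to 14070 (minus), whose ends overlap. Whether the counting used strand was not given in the sources used here, and reads of the overlap cannot be told apart without it. Of the 50-base stretches of mt-Nd4 and mt-Co1, 62.2% and 51.1% recur in other genes' transcripts, so these counts are uncertain.

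**Figure D3:**
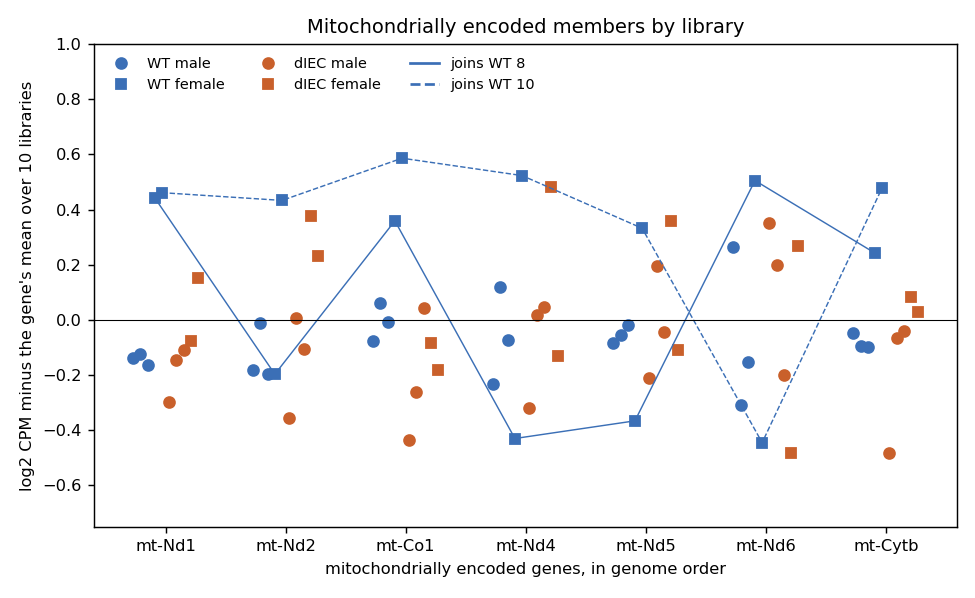
Log2 CPM of each mitochondrially encoded member minus its mean over the 10 libraries (vertical axis), by gene in genome order, with circles for males, squares for females, blue for WT and orange for dIEC. Lines join WT 8 (solid) and WT 10 (dashed), which lie close at mt-Nd1 and part at mt-Nd2, mt-Nd4, mt-Nd5 and mt-Nd6. WT 8 is the lower at mt-Nd2, mt-Nd4 and mt-Nd5 and the higher at mt-Nd6.

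The sexes were compared next, as a secondary test in the same fit. The 4 females included the 2 highest libraries, WT 8 and 10, so this comparison in part restates their height. Of 85 members 0 were called (edgeR, 0.0401% of genes called), with 36 at an unadjusted p under 0.05, each higher in females, against 2.55% of genes higher at that level. DESeq2 called 0 members (0.0721% of genes) and limma voom 0 (0.0481%). The nuclear median was 0.38 with 77 of 78 members higher in females, and the mitochondrial median 0.28 with 6 of 7 higher. The nuclear median was 0.21 without WT 8 and 0.22 in limma voom. With the proliferation score in the model 30 members were called, 29 of them higher in females, against 3.86% of genes called. The member lower in females was Cox6b2. The number at an unadjusted p under 0.05 was 4 without WT 8, 14 without WT 4, 15 without WT 6, 18 without dIEC 1, 21 without dIEC 9 and 68 without dIEC 7. It was 5 with scaling by library size only, 16 in limma voom and 76 with the proliferation score. Over all genes that number was 554 with every library, 290 without WT 8 and 349 to 402 without WT 4, WT 6 or dIEC 1. It was 1520 without dIEC 9 and 1019 without dIEC 7. Without WT 2, WT 10, dIEC 3 or dIEC 5 it was 438 to 551. Scaling by library size only gave 359 genes, limma voom 2366 and the proliferation score 3163.

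Split by genotype, the sex difference had the larger median in WT. Within WT, 40 members were higher in females at an unadjusted p under 0.05, against 3.82% of genes, with a nuclear median of 0.57. Of these 0 were called (0.0641% of genes called). Within dIEC, 0 members reached an unadjusted p under 0.05 (0.473% of genes higher at that level), 0 were called (0.0401%), and the nuclear median was 0.20.

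Split by sex, the genotype difference had the larger median in females. In males the nuclear median was -0.22, with 77 of 78 lower, 1 member (Cox6a1) at an unadjusted p under 0.05 (0.761% of genes) and 0 called (0.016%). In females it was -0.63, with 77 of 78 lower, 34 members at that level (4.07% of genes) and 0 called (0.0401%). In the same female comparison 12 of 12 crypt stem markers had fold changes above 0 (median 0.96), as did 25 of 26 proliferation (0.79), 11 of 11 goblet (0.82), 11 of 11 enteroendocrine (0.80) and 9 of 10 Paneth markers (0.94). The 4 tested erythroid markers had a median of 7.56, with 2 called. The 7 tested tuft markers were below 0 (median -0.64). In males these medians were -0.23, -0.20, -0.34, 0.003, -0.096, 0.057 and -0.11 in the same order. Of 22 mature enterocyte markers 14 were below 0 in females (median -0.118), and their median in males was 0.038. The 2 dIEC females differed in these markers. Crypt stem markers had mean log2 CPM of 3.28 in dIEC 7 and 5.46 in dIEC 9, against 4.25 and 3.52 in WT 8 and 10. Proliferation genes were at 2.97 and 5.59, against 4.54 and 3.30, and Paneth markers at 3.10 and 5.23, against 4.34 and 2.965. Goblet and enteroendocrine means were higher in both dIEC females than in both WT females. The part of these cell types in the respiratory chain values was not tested. Both dIEC females lay below both WT females for 55 of 85 members, against 10.3% of genes. These include by definition the 53 members for which both WT females stood above the other 8 libraries. All dIEC males lay below all WT males for 7 of 85 (Atp5d, Atp5g1, Atp5h, Cox6a1, Ndufb7, Ndufs7 and Sdhb), against 3.64%.

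The difference between the sexes in the genotype effect was itself tested. Of 85 members 0 were called (0.00801% of genes), and 3, namely Cox7a1, Uqcrfs1 and Atp5g3, had an unadjusted p under 0.05, against 2.10% of genes. DESeq2 called 0 members (0.152% of genes) and limma voom 0 (where it called 0% of genes). The nuclear median of this difference was -0.40, and it was -0.12 without WT 8, -0.19 without dIEC 7 and -0.69 without dIEC 9. Leaving out 1 female leaves 1 library in 1 of the 4 groups, so no counts are given for those fits. Without dIEC 1 the number at an unadjusted p under 0.05 was 5 members and 202 genes. It was 1 member without any other single male library, with 175 to 331 genes. With every library it was 262 genes. With the proliferation score in the model it was 46 members and 1351 genes, with a nuclear median of -0.52. That median was -0.24 with scaling by library size only.

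**Figure D4:**
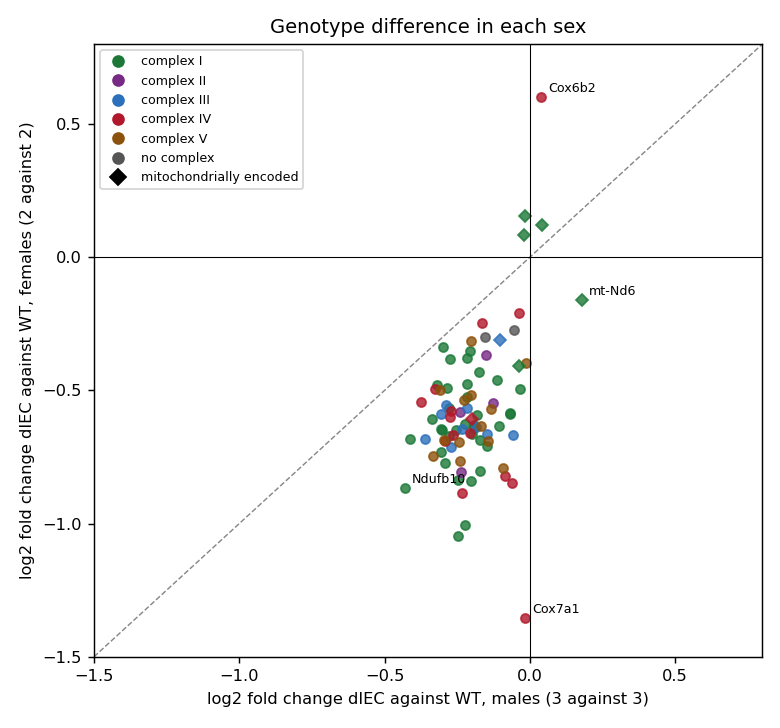
Log2 fold change of dIEC against WT in males (horizontal axis, 3 against 3) and in females (vertical axis, 2 against 2) for each tested member, coloured by complex, with diamonds for mitochondrially encoded genes and a dashed line of equal values. Most nuclear members lie below the line, Cox7a1 farthest, at -0.018 in males and -1.36 in females.

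Cox7a1 had the largest interaction estimate of the 85 members. It encodes the isoform of subunit 7a best known from heart and skeletal muscle, and Cox7a2 encodes the broadly expressed one. Cox7a1 was at 45.1, 43.6, 38.0, 134 and 100 CPM in WT 2, 4, 6, 8 and 10 and at 32.3, 46.4, 46.3, 49.4 and 42.1 CPM in dIEC 1, 3, 5, 7 and 9. Both WT females were at least 100 CPM and the other 8 libraries at most 49.4 CPM. The interaction was -1.34 (SE 0.31, unadjusted p = 0.00159, edgeR adjusted p = 1). DESeq2 gave an adjusted p of 0.0674 and limma voom 0.9999. Within WT, females were higher than males by 1.47 (SE 0.21, edgeR adjusted p = 0.0755). The listed muscle and stroma markers summed to 4.25 and 4.30 CPM in WT 8 and 10 and to between 5.29 and 9.10 CPM in the other 8. Of these 16 markers 4 were listed, and only 1, Vim, had enough counts to be tested. The sums therefore say little about muscle RNA, and the source of the Cox7a1 reads was not tested. None of the 50-base stretches of Cox7a1 recurs in another gene.

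The other isoform sets were read in the same way. Cox7a2 was at 139, 91.9, 126, 282 and 171 CPM in WT and at 82.6, 107, 114, 86.9 and 158 CPM in dIEC, with WT 8 and 10 highest again. Per kilobase, Cox7a1 made up 24.7% to 41.9% of the sum of both, with means of 34.3% in WT and 33.3% in dIEC. Cox7a2l, which promotes supercomplex assembly, was at 63.9 ± 14.0 and 55.5 ± 14.3 CPM. Of the genes for the c subunit of ATP synthase, Atp5g3 was at 312 ± 96.1 and 233 ± 31.9 CPM and Atp5g1 at 12.0 ± 3.53 and 8.63 ± 1.93 CPM. Per kilobase of annotated exon, which is 4912 bases for Atp5g1 and 724 for Atp5g3, Atp5g1 was 0.427% to 0.682% of the sum. Cox6b2, known from testis, was at most 3.13 CPM.

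**Figure D5:**
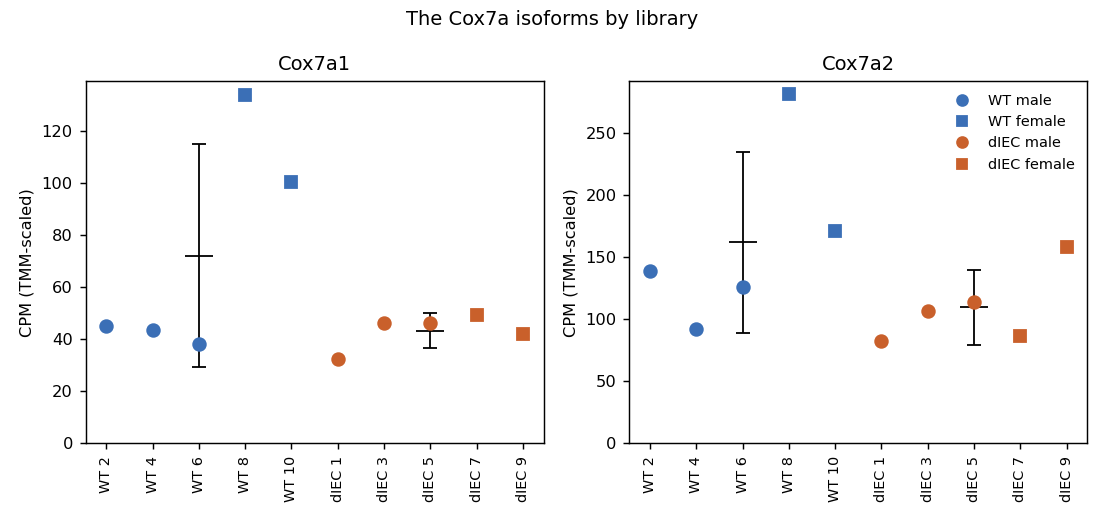
CPM of Cox7a1 and Cox7a2 (vertical axes from 0) in each library (circles males, squares females, blue WT, orange dIEC; black lines mean ± SD of 5 libraries). For Cox7a1 the 2 WT females, at 134 and 100 CPM, stand apart from the other 8, and for Cox7a2 dIEC 9, at 158 CPM, comes close to WT 10.

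Libraries of 1 sex and genotype also differed from each other. Between the dIEC females, 67 of 78 nuclear members were higher in dIEC 9, by a median of 0.53 log2 units, against 49.8% of all genes. Between the WT females, 74 of 78 were higher in WT 8, by a median of 0.42, against 50.9%. Ndufc2 differed by 1.78 and 1.03 in these pairs and Ndufa4 by 1.43 and 1.06. The reverse held for Cox6b2 (-1.98 and -1.87), mt-Nd4 (-0.61 and -0.95), Atp5sl (-0.47 and -0.45) and Atp5d (-0.46 and -0.36), genes picked here for their values. Cox6b2 rests on few reads, with 5 and 15 counts in dIEC 9 and 7 and 2 and 12 in WT 8 and 10. With 1 library on each side these differences have no replicate check. dIEC 9 and WT 8 also had more proliferation transcripts than their partners (5.59 against 2.97 and 4.54 against 3.30 in mean log2 CPM). Their cytosolic ribosomal protein genes were higher too (5.20 against 3.69 and 5.07 against 3.98), and their mature enterocyte markers lower (31190 against 90681 and 49922 against 76523 summed CPM). The part of these in the difference was not tested.

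Genes that build, feed and serve the chain were read from 10 further lists, in which 0 genes were called between genotypes. Of all 12477 genes tested, 0.016% were called and 47.4% were lower in dIEC (median 0.013). Of 14 complex I assembly factors 13 were lower in dIEC (median -0.25), and of 31 factors for the other complexes 29 (median -0.19). Of 17 genes of electron carriers and coenzyme Q synthesis 14 were lower (median -0.21), among them Coq4 (38.4 ± 10.04 and 27.5 ± 4.25 CPM; log2 fold change -0.45, SE 0.13). Of 9 genes of ATP export 7 were lower (median -0.19), among them the mitochondrial creatine kinase Ckmt1 (1659 ± 494 and 1160 ± 244 CPM). Of 17 citric acid cycle genes 16 were lower (median -0.25). All 76 tested mitochondrial ribosomal protein genes were lower (median -0.24), among them Mrpl4 (33.2 ± 4.41 and 25.0 ± 2.26 CPM; log2 fold change -0.40, SE 0.10).

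The remaining 4 lists held genes of more general function or of control. Of 76 cytosolic ribosomal protein genes 51 were lower (median -0.078), and of 21 genes that transcribe, copy or process the mitochondrial genome 15 were lower (median -0.082). Of 11 regulators of mitochondrial biogenesis, such as Nrf1, Gabpa and Tfam, 5 were lower (median 0.027). Of 18 glycolysis genes 15 were lower (median -0.24), among them Aldoa (337 ± 82.3 and 247 ± 19.4 CPM).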

How the data were processed

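RNA-seq of sorted ileal epithelium was analysed as raw counts per gene, as deposited by the authors. The aligner was Novoalign and the build mm10, per the submitters' processing notes, while counting program, strand setting and annotation were not given in the sources used here. Libraries were stranded and depleted of ribosomal RNA, per the labels' protocols. Totals of 9174101 to 13484363 counts set the counting precision, and mice vary beyond it. No 2 libraries of a group agreed within sampling noise (chi-square per degree of freedom at least 16.0).

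In R 4.3.3, filterByExpr of edgeR 4.0.16 kept 12477 genes (89.6%), scaled by TMM. Genotype and sex were tested in 1 additive model by edgeR's quasi-likelihood test, the interaction with their product, and differences within a sex or genotype in a model of the 4 groups. Calls need a p under 0.05 after Benjamini-Hochberg adjustment over the 12477 genes. SE is the absolute log2 fold change divided by the root of F, and log2 CPM has a prior count of 2. Alternatives used limma 3.58.1, DESeq2 1.42.0, other scalings, filters and covariates, and left out libraries. The limma voom fits used sample quality weights, which give more variable libraries less weight. Positions and 50-base matches come from GENCODE M21 (GRCm38). In simulated counts for 12477 genes, a small random part of the genes was given a change. Counts were drawn gene by gene, without shifts shared by many genes of a library, so recovery in the real libraries may differ. Among the changed genes, the genotype test recovered 2.99% of 1.5-fold, 41.8% of 2-fold and 89.4% of 4-fold changes. The sex test recovered 1.49%, 43.3% and 89.4%. The interaction test recovered 0.0%, 0.0% and 24.2%, so its lack of calls says less.

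The members, lists and tests were chosen with earlier results of these data known. Members given with values were every mitochondrial one, complex II and Cyc1, and for each other complex the 2 nuclear members highest per kilobase and the 2 with the smallest p. They also include the isoform sets, the 2 smallest p of each comparison without calls, and the smallest p of each further list. Of these 35 members and the list genes, the text gives a part. Any other was named after its values were seen.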

Additional observations from a re-analysis of the deposited data

Results flagged for a closer look

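Among the 5 libraries of a genotype, 3 of 84 gene groups held 1 library far from the other 4, where chance flags about 1 in 20. Each was a low value in dIEC 1. mt-Cytb was at 10.36 log2 CPM there and at 10.78 to 10.93 in the other dIEC libraries. Sdha was at 8.41 and 8.63 to 8.71, and Uqcrc1 at 8.25 and 8.65 to 8.81. The cause was not tested.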

How the results depend on the processing

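No member was called between genotypes in edgeR under the alternatives run. DESeq2 called 1 (Cox6a1). Of all genes, 2 were called, against 4 with DESeq2, 4 with a proliferation score in the model, 5 within females and 1 without dIEC 1 and 7, where H2-Ab1 missed the threshold (-6.29, adjusted p = 0.0579). With the proliferation score, 30 members were called between the sexes. The nuclear median stayed below 0 in each setting and ran from -0.458 to -0.276 when 1 library was left out (lowest without WT 4, highest without WT 8). The mitochondrial median was -0.162 within females and ran from -0.106 (without WT 8) to -0.000 (without dIEC 3) when 1 library was left out. Signs turned for mt-Nd2 (-0.017 within males, -0.020 without WT 8 and 10), mt-Nd4 (-0.020, -0.023, and -0.033 without dIEC 1 and 7) and mt-Nd6 (-0.002 with the proliferation score, -0.162 within females). When 1 library was left out, ranges were -0.042 to 0.138 for mt-Nd2, -0.106 to 0.174 for mt-Nd4, -0.023 to 0.183 for mt-Nd5, -0.060 to 0.253 for mt-Nd6 and -0.179 to 0.738 for Cox6b2. The other named members kept their sign in each setting run. The cause of these changes was not tested. With 2 females per genotype, 1 library moves each female value. No paired analysis was made, since the sample labels name no pairs of mice across genotypes.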
